A study of Mus musculus with 6 samples.

Results

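The cholesterol synthesis and transport genes comprise 29 genes chosen by name, and all 29 were found among the 24797 genes of the deposited count table. They cover the mevalonate pathway, the squalene and sterol ring steps, the proteins that sense sterols, and the proteins that take up, move and export cholesterol. Polyadenylated RNA was sequenced from colonic tumors raised in mice with AOM/DSS, a regimen that pairs the carcinogen azoxymethane with bouts of colitis caused by dextran sulfate sodium. The tumors fell into 2 genotypes of 3 samples each. GRdim mice carry a glucocorticoid receptor deficient in dimerization, and GRwt mice carry the wildtype receptor. All animals had received AOM/DSS, so no untreated colon stands beside them, and age and strain background were not given in the sources used here. Whether each sample was a separate animal, and whether it was 1 tumor or a pool, is not stated, so p-values here reflect only how these samples vary, which may in part be technical.

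Cells build cholesterol from acetyl-CoA. The mevalonate pathway makes isoprenoid units, which are joined to squalene, and squalene is closed into lanosterol and trimmed to cholesterol. When membranes of the endoplasmic reticulum are low in sterol, SCAP escorts the SREBP transcription factors to the Golgi, where they are cleaved and then switch on nearly every enzyme of the pathway. When sterol is plentiful, the INSIG proteins hold SCAP back. NPC proteins carry lipoprotein cholesterol out of lysosomes, and the ABC transporters, induced by the LXR receptors when sterol accumulates, export it. In the intestine the pathway supplies membranes of dividing crypt cells and their tumors, and glucocorticoids are known regulators of lipid metabolism in several tissues.

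Total counts lay between 21132981 and 36222351 per library. GRdim replicate 1 and GRwt replicate 3, whose library names carry a T, held 2.05% and 2.51% of counts in the ribosomal sequence Rn18s-rs5, against 0.0466% to 0.0725% in the other libraries. Ddx3y, a Y-linked gene, stood at 59.5 CPM in GRdim replicate 2 (at most 0.763 CPM elsewhere), and this library had 0.255 CPM of Xist, against 517 to 1278 CPM elsewhere. By these genes GRdim replicate 2 was male and the other libraries were female. The names of GRdim replicates 1 and 3 share a number, and whether these came from 1 animal is not stated. Gene counts do not check the GRdim allele, which alters the receptor protein, and Nr3c1, the receptor gene, had 80.5, 49.2 and 49.3 CPM in the GRdim libraries, against 43.9, 57.4 and 64.5 CPM in the GRwt libraries. Epithelial markers were abundant in every library, with a summed level of 13196, 14950.1 and 15849 CPM in GRdim replicates 1, 2 and 3 and 15871, 20392 and 13295 CPM in GRwt replicates 1, 2 and 3. Krt8, Krt19 and Lgals4, a pair of keratins and a galectin of intestinal epithelium, had the highest levels among them, and no epithelial marker was at 0 in any library.

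Transcript levels of the cholesterol genes differed little between the genotypes. Of the 29 genes, 28 passed the filter on low counts and were tested with edgeR's quasi-likelihood test, with p-values adjusted over all 18756 genes tested. None of the 28 passed an adjusted p of 0.05, against 0% of all genes tested, and none had an unadjusted p under 0.05, against 2.88% of all genes tested (1.79% higher and 1.09% lower in GRdim). DESeq2 and limma-voom also called none of them, and DESeq2 called 33 genes in the whole table. Log2 fold changes, given throughout as GRdim minus GRwt, ran from -0.25 for Fdps to 0.24 for Abca1. The 95% interval of the difference stayed within a 2-fold change in either direction for all 28, and within a 1.5-fold change for 14. Across all genes tested the interval stayed within a 2-fold change for 10768 of 18756, and the median standard error was 0.21 for the cholesterol genes and 0.29 for all genes.

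**Figure D1:**
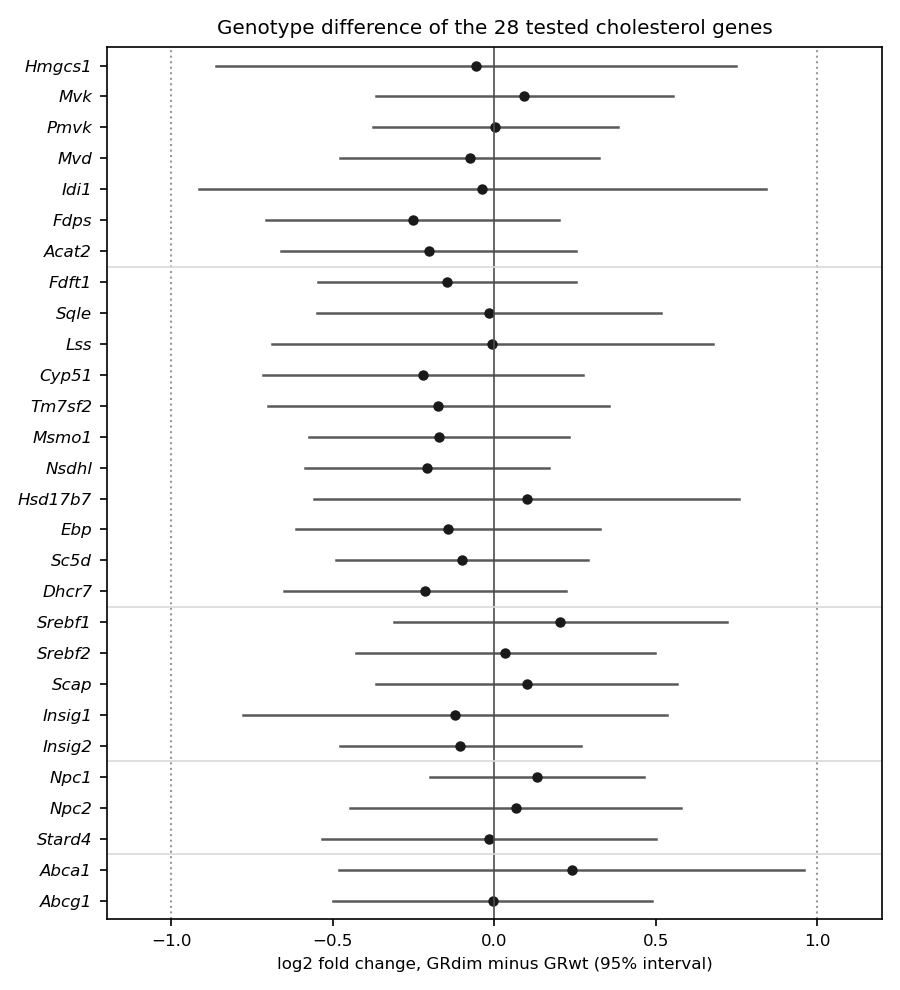
Log2 fold change, GRdim minus GRwt, of the 28 tested cholesterol genes, with points for the estimates and bars for their 95% intervals from edgeR. Grey lines part the roles, the dotted lines mark 2-fold changes, and every interval includes 0 and lies within the dotted lines.

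Most enzymes of synthesis had small fold changes below 0, none past the threshold. These were 15 of 18, against 49.4% of all genes tested, with a median of -0.12 against 0.0040. The count was 12 of 18 without GRdim replicate 2 and 13 of 18 without both T libraries, GRdim replicate 1 and GRwt replicate 3. The median was -0.055 without GRdim replicate 2, and -0.19 when GRdim replicate 3 was left out. Leaving out GRwt replicate 2 gave -0.080. GRdim replicate 2 was the only male library, and sex cannot be told apart from other differences between this sample and the rest. The genes share control of their transcription, and their signs are not independent of each other. Over all 28 genes 19 were lower and 9 higher, with a median of -0.047, and 13 were lower without GRdim replicate 2. All 11 epithelial markers and all 10 goblet cell markers also had fold changes below 0, and all 10 smooth muscle markers above 0, none past the threshold. Summed smooth muscle markers stood at 3023, 1361 and 7002 CPM in GRdim replicates 1, 2 and 3 and 1599.6, 1418 and 1691 CPM in GRwt replicates 1, 2 and 3. Their part in the cholesterol values was not tested, and in bulk tumor RNA fewer cells of a type and less RNA per cell cannot be told apart.

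Promoters of this pathway are textbook examples of sterol control, in which SREBP binds a sterol regulatory element beside the CCAAT-binding factor NF-Y and the GC-box factor Sp1. RefSeq promoter windows on GRCm38.p6, which run 250 bases before to 50 bases after a start, matched 23 of the 29 genes, with 31 windows in all. The windows of Hmgcs1, Hsd17b7, Lss and Insig1 are shown because these genes varied widely between libraries in a shared order, and that of Tm7sf2 because it varied in another order. Each reads 5′ to 3′ on the gene's own strand, with capitals marking the sterol regulatory element core TCACNCCAC and the CCAAT box in either orientation (ATTGG on the reverse strand).
Hmgcs1 (chr13:119690101-119690400, plus strand): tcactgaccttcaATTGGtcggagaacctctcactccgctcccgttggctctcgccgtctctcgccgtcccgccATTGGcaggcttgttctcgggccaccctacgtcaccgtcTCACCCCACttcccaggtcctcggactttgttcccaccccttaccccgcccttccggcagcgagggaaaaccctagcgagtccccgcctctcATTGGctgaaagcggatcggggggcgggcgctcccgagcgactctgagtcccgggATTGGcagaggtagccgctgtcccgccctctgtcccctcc
Hsd17b7 (chr1:169969156-169969455, minus strand): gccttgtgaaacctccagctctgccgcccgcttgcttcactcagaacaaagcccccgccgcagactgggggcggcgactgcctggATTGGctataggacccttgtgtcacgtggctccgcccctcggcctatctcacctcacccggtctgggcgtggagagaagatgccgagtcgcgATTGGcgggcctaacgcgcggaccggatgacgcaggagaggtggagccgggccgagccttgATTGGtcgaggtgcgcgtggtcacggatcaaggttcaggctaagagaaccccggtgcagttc
Lss (chr10:76531355-76531654, plus strand): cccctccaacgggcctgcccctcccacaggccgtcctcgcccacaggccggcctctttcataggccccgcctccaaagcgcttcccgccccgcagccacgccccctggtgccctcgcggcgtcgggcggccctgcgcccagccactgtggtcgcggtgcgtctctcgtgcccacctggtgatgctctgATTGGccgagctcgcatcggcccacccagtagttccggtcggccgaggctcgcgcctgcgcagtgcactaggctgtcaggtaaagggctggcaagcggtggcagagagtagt
Insig1 (chr5:28071162-28071461, plus strand): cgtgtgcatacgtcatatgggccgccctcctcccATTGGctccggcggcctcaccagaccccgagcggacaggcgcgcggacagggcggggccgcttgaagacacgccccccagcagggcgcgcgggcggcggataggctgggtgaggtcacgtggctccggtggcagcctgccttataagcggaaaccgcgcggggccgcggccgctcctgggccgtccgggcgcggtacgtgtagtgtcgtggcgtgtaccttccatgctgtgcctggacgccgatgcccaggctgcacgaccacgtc
Tm7sf2 (chr19:6067801-6068100, minus strand): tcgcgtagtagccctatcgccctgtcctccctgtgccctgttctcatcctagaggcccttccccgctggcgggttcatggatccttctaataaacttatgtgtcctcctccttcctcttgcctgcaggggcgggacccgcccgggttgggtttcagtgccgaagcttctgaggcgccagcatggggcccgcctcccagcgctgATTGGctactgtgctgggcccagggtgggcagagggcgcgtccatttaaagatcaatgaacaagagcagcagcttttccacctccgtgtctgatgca

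The sterol element core occurred in 1 of the 31 windows of these genes, that of Hmgcs1, and in 1.24% of all 32851 windows. Only its exact letters were searched, so a sterol element with a differing base, or one outside the windows, would be missed. Fdps, Fdft1, Sqle, Npc1, Stard4 and Abcg1 had no window. CCAAT stood in 21 of the 31 windows, against 37.4% of all windows, and the GC box GGGCGG in 25, against 35.7%. All 5 windows shown hold both. The E-box CACGTG is a further element that SREBP proteins can bind. It was present in 7 windows of 6 genes, Hsd17b7 and Insig1 among them, against 7.15% of all windows. The glucocorticoid receptor half-site AGAACA was present in 8 windows of 7 genes, Hmgcs1, Hsd17b7 and Tm7sf2 among them, against 19.0% of all windows. The windows of Scap overlap and share an E-box, a half-site and a GC box, each counted in both windows. Both strands were searched and motifs could overlap each other. A match describes letters only and is not a measured binding site.

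In the mevalonate pathway, Hmgcs1, the cytosolic synthase that condenses acetoacetyl-CoA with acetyl-CoA (chromosome 13, 120151915 to 120169796, plus strand, GRCm39), had 415, 152 and 274 CPM in GRdim replicates 1, 2 and 3, against 225, 286 and 363 CPM in GRwt replicates 1, 2 and 3. The GRdim libraries spanned the whole range, with the highest and the lowest of the 6 values, and enclosed all GRwt values. The log2 fold change was -0.057 ± 0.35 SE (standard error), and its 95% interval ran from -0.86 to 0.75. It was -0.45 without GRdim replicate 1 and 0.24 without GRdim replicate 2. Fdps, the farnesyl diphosphate synthase that chains isoprene units, had 114, 119 and 161 CPM in the GRdim libraries, against 161, 172 and 136 CPM in the GRwt libraries. GRdim replicate 3 lay among the GRwt values and the other GRdim libraries below them. At -0.25, with a standard error of 0.20 and an interval of -0.71 to 0.20, Fdps had the lowest fold change of the group and, with edgeR, the smallest unadjusted p, 0.235. Acat2, the cytosolic thiolase that starts the pathway, had 39.9, 30.2 and 47.4 CPM in the GRdim libraries, against 48.4, 42.5 and 44.3 CPM in the GRwt libraries, with GRdim replicate 2 lowest and a fold change of -0.20 ± 0.20 SE. Reads of its near copy Acat3, listed at 0.397 to 1.37 CPM, cannot be fully told apart from it.

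Idi1, the isomerase that interconverts the isoprene units, was the lowest of the enzymes in CPM and among the most variable, at 16.8, 11.7 and 8.96 CPM in the GRdim libraries, against 7.05, 12.4 and 19.0 CPM in the GRwt libraries. GRdim replicate 1 and GRwt replicate 3 were its 2 highest libraries and GRwt replicate 1 its lowest, and the genotypes overlapped (fold change -0.037 ± 0.38 SE). The other mevalonate enzymes varied less. Mvk, the mevalonate kinase, ranged over 31.7 to 45.9 CPM in GRdim libraries and 30.8 to 40.9 CPM in GRwt libraries, and Pmvk, the second kinase, over 39.9 to 49.2 CPM in GRdim libraries and 42.9 to 49.6 CPM in GRwt libraries. Mvd, the decarboxylase that follows them, ranged over 61.5 to 85.1 CPM in GRdim libraries and 70.8 to 80.1 CPM in GRwt libraries. Their fold changes of 0.093, 0.0026 and -0.077 were each smaller than the standard error.

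The steps that make and shape the sterol ring had 11 genes, of which 10 had a fold change below 0 and 0 passed the test, with a median of -0.15. Fdft1, the squalene synthase that commits isoprenoids to sterols, averaged 171 ± 19.6 CPM in GRdim tumors and 189 ± 15.4 CPM in GRwt tumors (mean ± SD, n = 3 each), with 175, 149 and 188 CPM in the GRdim libraries, against 172, 193 and 202 CPM in the GRwt libraries. GRdim replicate 2 was its lowest library and GRwt replicate 3 its highest. Sqle, the squalene epoxidase and a rate-limiting step, had 135, 88.0 and 137 CPM in the GRdim libraries, against 97.3, 122 and 145 CPM in the GRwt libraries, a fold change of -0.017 with an interval of -0.55 to 0.52. Lss, the cyclase that folds squalene epoxide into lanosterol, had 79.1, 40.8 and 47.0 CPM in the GRdim libraries, against 41.8, 52.4 and 73.3 CPM in the GRwt libraries. GRdim replicate 1 and GRwt replicate 3 stood above the other 4 libraries for Lss, 1 of each genotype, and the fold change was -0.0061. Cyp51, the demethylase that acts on lanosterol, had 196, 130.4 and 154 CPM in the GRdim libraries, against 154, 187 and 218 CPM in the GRwt libraries, with GRdim replicate 2 lowest, GRwt replicate 3 highest and a fold change of -0.22 ± 0.22 SE.

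Downstream of lanosterol, Msmo1, the C4-methyl oxidase, had 163, 132 and 153 CPM in the GRdim libraries, against 151, 187 and 166 CPM in the GRwt libraries, with a fold change of -0.17 ± 0.18 SE. Nsdhl, the dehydrogenase of the same demethylation, had 82.2, 92.1 and 102 CPM in the GRdim libraries, against 116, 98.1 and 105 CPM in the GRwt libraries. For Nsdhl the highest GRdim library lay between the GRwt values, the other GRdim libraries lay below all of them, and the fold change was -0.21 ± 0.17 SE. Hsd17b7, the reductase that completes this step, had 36.1, 21.4 and 29.1 CPM in the GRdim libraries, against 18.9, 25.1 and 36.7 CPM in the GRwt libraries, and was the only gene of the ring steps with a fold change above 0, 0.10 ± 0.29 SE. Dhcr7, which makes cholesterol from its last precursor in the Kandutsch-Russell route, had 105, 85.1 and 117 CPM in the GRdim libraries, against 113, 138 and 106 CPM in the GRwt libraries, with GRdim replicate 2 lowest, GRwt replicate 2 highest and a fold change of -0.21 ± 0.19 SE. Tm7sf2, a C14-sterol reductase, had 35.4, 46.9 and 57.3 CPM in the GRdim libraries, against 61.9, 54.2 and 41.4 CPM in the GRwt libraries. Here GRdim replicate 1 and GRwt replicate 3 were the 2 lowest libraries, the opposite of Lss, and the fold change was -0.17 ± 0.23 SE. Ebp, the sterol isomerase, had 71.1, 98.3 and 90.6 CPM in the GRdim libraries, against 103, 109 and 75.6 CPM in the GRwt libraries, likewise lowest in GRdim replicate 1 and GRwt replicate 3 (fold change -0.14 ± 0.21 SE). Sc5d, the C5 desaturase, ranged over 88.5 to 109 CPM in GRdim libraries and 97.5 to 119 CPM in GRwt libraries.

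**Figure D2:**
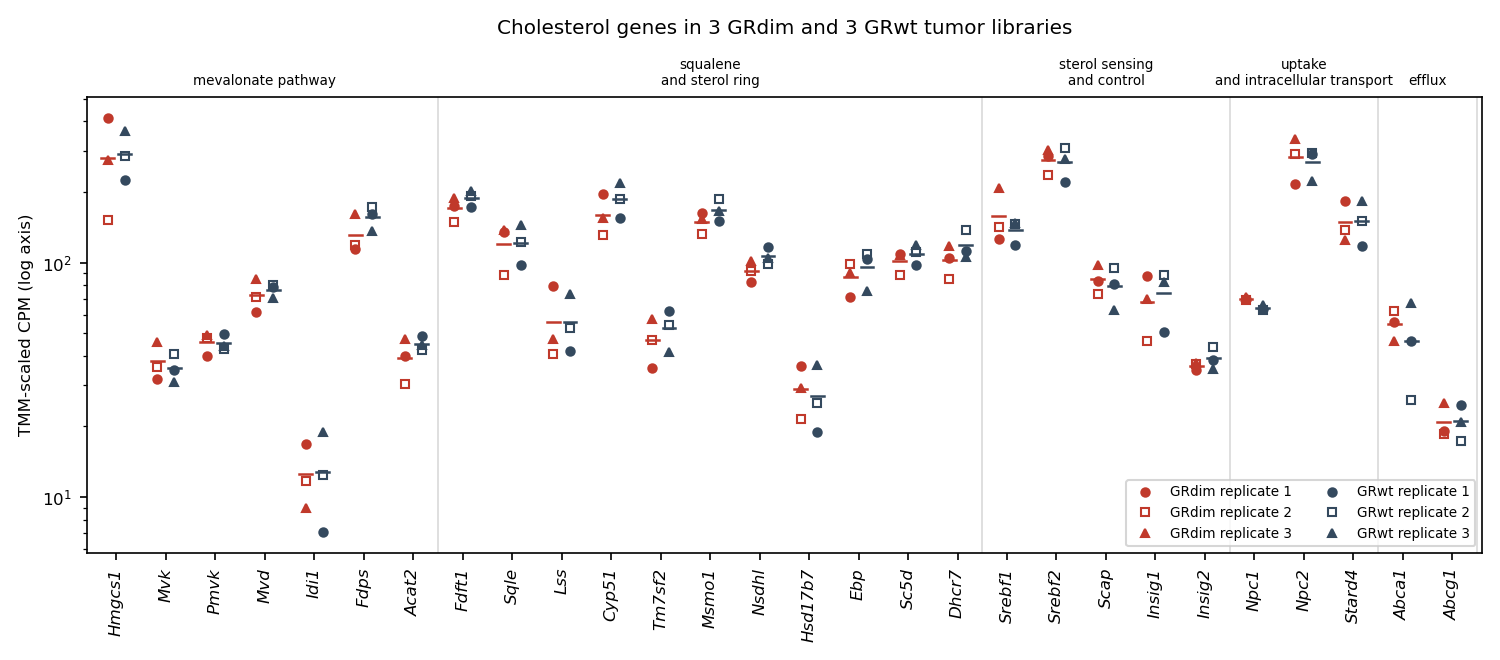
TMM-scaled CPM (log axis) of the 28 tested cholesterol genes in each of the 3 GRdim (red, left) and 3 GRwt (blue, right) libraries, with marker shapes for the replicates and short lines for the genotype means, ordered by role. The genotypes overlap for every gene apart from Npc1.

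Among the genes of sterol sensing, Srebf2, whose protein drives cholesterol synthesis, averaged 275 ± 33.9 CPM in GRdim tumors and 268 ± 43.8 CPM in GRwt tumors (mean ± SD, n = 3 each), with 285, 237 and 303 CPM in the GRdim libraries, against 221, 307 and 277 CPM in the GRwt libraries. GRwt replicate 1 was lowest and GRwt replicate 2 highest, so the GRdim libraries lay inside the GRwt range, and the fold change was 0.034 ± 0.20 SE. Srebf1, whose protein favours fatty acid synthesis and is itself induced by LXR, had 126, 142 and 208 CPM in the GRdim libraries, against 119, 146 and 148 CPM in the GRwt libraries. GRdim replicate 3 stood above the other 5 libraries. The fold change of Srebf1 was 0.20 ± 0.23 SE, and -0.044 without GRdim replicate 3. Insig1, the retention protein that is itself an SREBP target, had 87.6, 46.2 and 69.9 CPM in the GRdim libraries, against 50.7, 88.4 and 82.6 CPM in the GRwt libraries. GRdim replicate 2 and GRwt replicate 1 were low and the other 4 libraries higher, with a fold change of -0.12 ± 0.29 SE. Its relative Insig2, which depends less on sterol, varied less, over 34.8 to 37.2 CPM in GRdim libraries and 35.0 to 43.7 CPM in GRwt libraries. Scap, the escort protein, ranged over 73.6 to 97.9 CPM in GRdim libraries and 62.5 to 94.3 CPM in GRwt libraries, with a fold change of 0.10. Of these 5 genes 0 passed the test.

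Among the transport genes, Npc1, the lysosomal membrane protein that exports cholesterol (chromosome 18, 12322749 to 12369457, minus strand, GRCm39), had 70.2, 68.9 and 71.0 CPM in GRdim replicates 1, 2 and 3, against 63.4, 62.9 and 65.6 CPM in GRwt replicates 1, 2 and 3. All GRdim libraries lay above all GRwt libraries, by a small margin. Npc1 was the only 1 of the 28 genes whose genotypes did not overlap, against 6.55% of all genes tested, of which 2.98% had all GRdim libraries above. No cholesterol gene had all GRdim libraries below, against 3.57% of all genes tested. The means were 70.0 ± 1.01 CPM in GRdim tumors and 63.9 ± 1.42 CPM in GRwt tumors (mean ± SD, n = 3 each). The fold change was 0.13 ± 0.14 SE, with an interval of -0.20 to 0.46. That SE is moderated over all genes by edgeR, and the SD of log2 CPM within genotypes was 0.027 for Npc1. Across the alternatives tried its fold change stayed between 0.11 and 0.15, the upper value without both T libraries. Rmc1 overlaps Npc1 on the other strand and stood at 46.7 CPM in GRdim and 48.9 CPM in GRwt tumors.

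Npc2, the soluble lysosomal protein that hands cholesterol to Npc1, did not share this order, with 217, 289.5 and 335 CPM in the GRdim libraries, against 289, 294 and 222 CPM in the GRwt libraries. GRdim replicate 1 and GRwt replicate 3 were lowest, and the fold change was 0.065 ± 0.22 SE. Stard4, a cytosolic sterol carrier and SREBP target, had 182, 137 and 125 CPM in the GRdim libraries, against 118, 149.8 and 182 CPM in the GRwt libraries, a fold change of -0.017. Its highest libraries were GRdim replicate 1 and GRwt replicate 3. Npc1l1, which takes up dietary cholesterol in the small intestine, had counts of 3, 6 and 7 in GRdim and 3, 0 and 6 in GRwt replicates 1, 2 and 3. That is too few for a comparison, and Npc1l1 was the 1 gene that did not pass the filter.

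Of the exporters, Abca1, which loads cholesterol onto apolipoprotein A-I (chromosome 4, 53030787 to 53159895, minus strand, GRCm39), had 55.8, 62.1 and 46.4 CPM in the GRdim libraries, against 46.1, 25.9 and 67.1 CPM in the GRwt libraries. GRwt libraries held both the lowest and the highest value, in replicates 2 and 3. The fold change, 0.24 ± 0.32 SE, was the highest of the 28 genes, with an interval of -0.48 to 0.96. It was -0.047 without GRwt replicate 2 and 0.58 without both T libraries. Abcg1, which passes cholesterol to formed lipoprotein particles, ranged over 18.6 to 25.2 CPM in GRdim libraries and 17.4 to 24.7 CPM in GRwt libraries, with a fold change of -0.0048 and an interval of -0.50 to 0.49. Both exporters are abundant in macrophages. Summed macrophage markers stood at 478, 686 and 567 CPM in GRdim replicates 1, 2 and 3 and 819.7, 482 and 516 CPM in GRwt replicates 1, 2 and 3. Of 10 markers 3 were higher, 7 lower, none passed the threshold and none was at 0. Lyz2, C1qa and C1qc had the highest levels among them. The sum was lowest in GRdim replicate 1 and GRwt replicate 2 and highest in GRwt replicate 1. Abca1 was lowest in GRwt replicate 2 and highest in GRwt replicate 3, where the sum was 516 CPM. In GRdim replicate 1 and GRwt replicate 1 Abca1 had 55.8 and 46.1 CPM. The part of macrophages in the exporter values was not tested.

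Set beside each other per exon length, the genes kept a wide range of levels. Hmgcs1 was highest, at 62.2 ± 20.5 CPM per kilobase of annotated exon (mean ± SD over the 6 libraries), followed by Npc2 at 50.5 ± 8.46 and Fdft1 at 42.5 ± 4.42. These 3 overlapped in their library ranges, as did each gene with its neighbours down to Insig2. Insig2, at 10.9 ± 0.940, and Npc1, at 5.92 ± 0.310, were parted: the lowest library of Insig2 had 10.02 and the highest of Npc1 6.27 CPM per kilobase. Below that gap lay Hsd17b7, Lss, Abca1, Idi1 and Abcg1, between 2.87 and 5.46. Exon lengths count every annotated isoform of GENCODE M21, which lowers the level per kilobase of genes with long, rare isoforms.

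**Figure D3:**
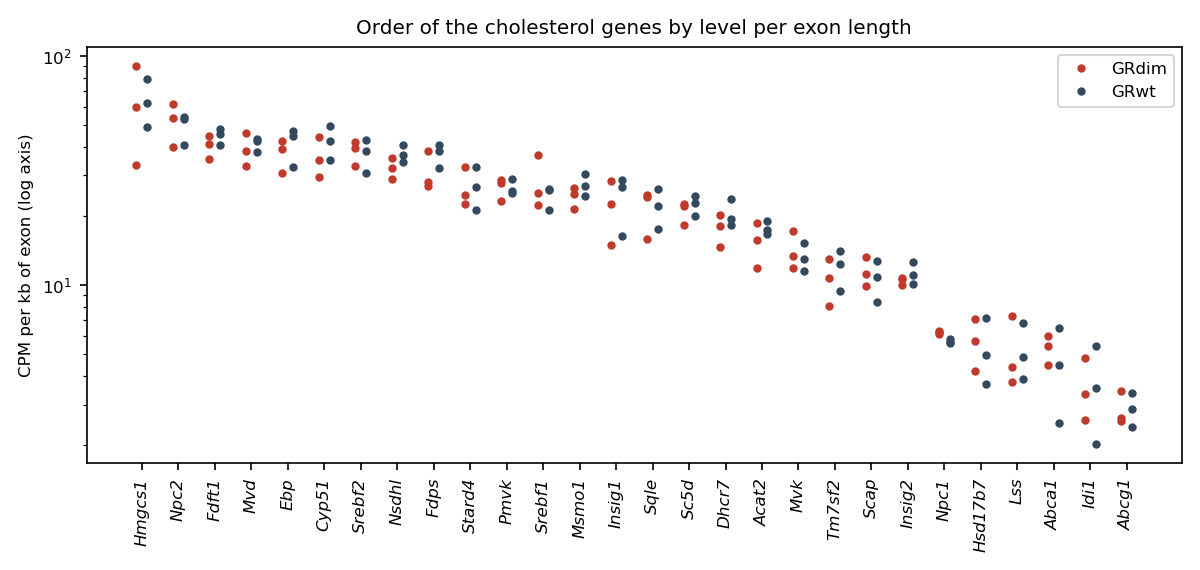
CPM per kilobase of annotated exon (log axis) of the 28 tested cholesterol genes in the GRdim (red, left) and GRwt (blue, right) libraries, ordered by the mean over all 6. Hmgcs1 stands first, and a gap follows Insig2.

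Within genotypes, the SD of log2 CPM had a median of 0.25 over the 28 genes, against 0.28 over the 12139 tested genes with a mean of at least 5 CPM. It was smallest for Npc1, at 0.027, and largest for Idi1 and Hmgcs1, at 0.60 and 0.57. Over all 6 libraries the highest exceeded the lowest by 1.13 times for Npc1 and 2.72 times for Hmgcs1, with a median of 1.54, against 1.63 over the same 12139 genes. Idi1 and Abca1 followed Hmgcs1, at 2.69 and 2.59 times. For 9 of the 28 genes the 2 lowest libraries were GRdim replicate 2 and GRwt replicate 1, namely Hmgcs1, Fdft1, Sqle, Lss, Msmo1, Hsd17b7, Sc5d, Srebf2 and Insig1. This held for 7.02% of the genes with a mean of at least 5 CPM. The reverse, with these 2 libraries highest, held for 0 of the 28 genes and 7.42% of all such genes. The order was noticed in these values, so it is a description. Summed macrophage markers were highest in the same 2 libraries, and their part in it was not tested.

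A second set of 6 genes had GRdim replicate 1 and GRwt replicate 3 as its 2 lowest libraries, namely Mvk, Mvd, Tm7sf2, Ebp, Insig2 and Npc2. These are the libraries with a T in their names and more ribosomal sequence, and the same order held for 25.0% of the genes with a mean of at least 5 CPM, a share close to that of the cholesterol genes. The 6 genes had a median exon length of 3074 bases, against 5104 bases in the set of 9. The median was 5586 bases over the other 13 cholesterol genes. Over all such genes of the table the medians were 2748 and 6661.5 bases for the same 2 orders. The part of transcript length was not tested. Of the genes whose promoters are printed, Hmgcs1, Lss and Hsd17b7 were highest in GRdim replicate 1 and GRwt replicate 3, where Tm7sf2 was lowest.

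**Figure D4:**
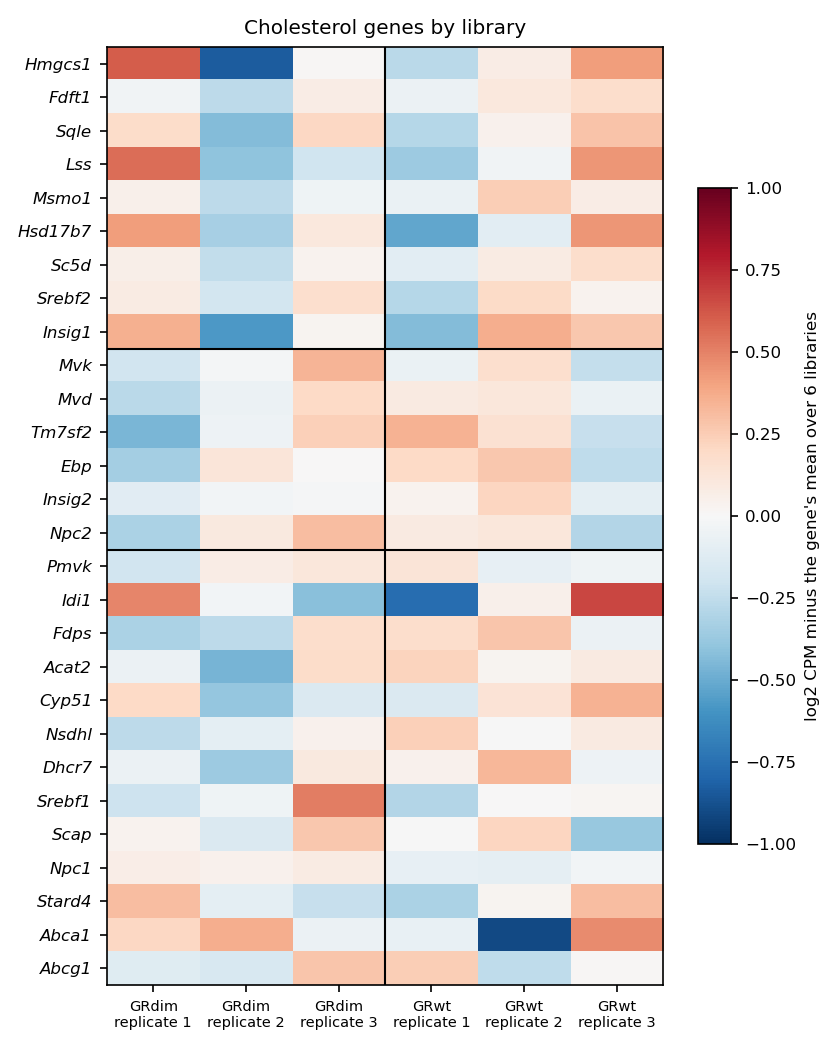
Log2 CPM of each tested cholesterol gene minus its mean over the 6 libraries, in colour (red above it, blue below), for the GRdim libraries (left) and GRwt libraries (right). The top block holds the 9 genes lowest in GRdim replicate 2 and GRwt replicate 1, the middle block the 6 lowest in GRdim replicate 1 and GRwt replicate 3, and the bottom block the other genes.

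No further gene of sterol handling passed the test. Of 51 such genes, covering other enzymes, lipoprotein uptake, esterification, sterol carriers, LXR receptors and oxysterol enzymes, 50 were tested and 0 passed with edgeR, with 30 higher, 20 lower and a median of 0.018. At an unadjusted p under 0.05 the count was 1. That gene was Pltp, the phospholipid transfer protein of lipoproteins, with 14.8, 10.3 and 18.5 CPM in the GRdim libraries, against 9.73, 9.97 and 7.13 CPM in the GRwt libraries. The GRdim libraries lay above all GRwt libraries, and the fold change was 0.70 ± 0.28 SE. Abcg5, a subunit of the transporter that returns sterol to the gut lumen, also lay higher in all GRdim libraries, with 7.79, 8.56 and 11.2 CPM in the GRdim libraries, against 5.98, 6.61 and 7.46 CPM in the GRwt libraries and a fold change of 0.46 ± 0.26 SE. Tmem97, a sterol-responsive binding partner of Npc1, lay lower in all GRdim libraries, with 47.3, 50.5 and 52.0 CPM in the GRdim libraries, against 69.9, 61.3 and 56.9 CPM in the GRwt libraries and a fold change of -0.33 ± 0.16 SE. These 3 of 50 are a share near the 6.55% of all genes tested whose genotypes did not overlap. Cyp27a1, the mitochondrial sterol 27-hydroxylase, had 37.8, 87.2 and 93.9 CPM in the GRdim libraries, against 48.4, 49.2 and 35.5 CPM in the GRwt libraries, with GRdim replicates 2 and 3 above the other 4 libraries and a fold change of 0.72 ± 0.33 SE. Mylip, an LXR-induced ligase that degrades lipoprotein receptors, had 30.3, 43.6 and 42.5 CPM in the GRdim libraries, against 26.0, 30.7 and 31.4 CPM in the GRwt libraries and a fold change of 0.40 ± 0.20 SE.

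SREBP proteins also control genes of fatty acid synthesis. Of 13 tested 0 passed with edgeR, 1 had an unadjusted p under 0.05, and the median fold change was 0.061. Thrsp, a lipogenic regulator abundant in fat and liver, had 12.95, 2.07 and 8.04 CPM in the GRdim libraries, against 3.78, 1.17 and 1.74 CPM in the GRwt libraries, with a fold change of 1.77 ± 0.67 SE. GRdim replicates 1 and 3 stood above the other 4 libraries, and GRdim replicate 2 lay within the GRwt range. Summed adipocyte markers stood at 283, 96.6 and 156 CPM in GRdim replicates 1, 2 and 3 and 143, 147 and 98.1 CPM in GRwt replicates 1, 2 and 3, highest in GRdim replicates 1 and 3. Of 10 adipocyte markers 9 were tested, 8 higher and 1 lower, and Adipoq, Plin1, Cfd and Lep had a count of 0 in at least 1 library. Pck1, Fabp4 and Cfd had the highest levels. Pck1, which is also active outside fat, was the marker with a fold change below 0, with 126, 71.4 and 15.5 CPM in the GRdim libraries, against 83.2, 124 and 64.7 CPM in the GRwt libraries. The sum of the other 9 markers, formed after these values were seen, was 157, 25.1 and 140.2 CPM in the GRdim libraries, against 60.2, 22.4 and 33.4 CPM in the GRwt libraries. In GRwt replicate 2 most of the sum was thus Pck1. Adrb3, an adrenergic receptor of fat named after its values were seen, had all GRdim libraries above, as had 2.98% of all genes tested. It had 1.91, 0.765 and 1.87 CPM in the GRdim libraries, against 0.327, 0.509 and 0.193 CPM in the GRwt libraries, from counts of 7 to 51. The part of adipocyte transcript in the Thrsp values was not tested. Scd1, the stearoyl-CoA desaturase, had 327, 105 and 209 CPM in the GRdim libraries, against 132, 92.5 and 171 CPM in the GRwt libraries, again highest in GRdim replicates 1 and 3, with a fold change of 0.70 ± 0.40 SE. Fads1, a desaturase of polyunsaturated fatty acids, lay lower in all GRdim libraries, as did 3.57% of all genes tested. It had 79.0, 79.6 and 83.0 CPM in the GRdim libraries, against 96.1, 88.2 and 108 CPM in the GRwt libraries and a fold change of -0.28 ± 0.16 SE. Acly, Fasn, Scd2 and Acss2, enzymes that supply acetyl-CoA and build or desaturate fatty acids, had GRdim replicate 2 and GRwt replicate 1 as their 2 lowest libraries, as the set of 9 cholesterol genes did. Fasn, the fatty acid synthase, had 424, 284 and 375 CPM in the GRdim libraries, against 298, 325 and 415 CPM in the GRwt libraries. The order held for 4 of 11 fatty acid genes and 8 of 44 further sterol genes with a mean of at least 5 CPM.

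Of 10 squamous markers 6 were tested, and all 6 were higher. All 10 summed to 86.6, 89.6 and 674 CPM in GRdim replicates 1, 2 and 3. In GRwt replicates 1, 2 and 3 the sums were 75.7, 139 and 91.8 CPM. Trp63, Sprr3 and Krtdap had 0 counts in at least 1 library. Krt4 and Krt15, keratins of squamous epithelium named after their values were seen, had all GRdim libraries above, as had 2.98% of all genes tested. Krt4 had 4.90, 6.77 and 12.5 CPM in the GRdim libraries, against 1.73, 2.85 and 2.46 CPM in the GRwt libraries. Krt15 had 8.27, 14.1 and 17.8 CPM in the GRdim libraries, against 3.87, 5.65 and 6.61 CPM in the GRwt libraries. The other tested squamous markers, Krt6a, Krt13, Krt14 and Dsg3, overlapped between the genotypes and were highest in GRdim replicate 3. Krt14 had 39.5, 42.2 and 341 CPM in the GRdim libraries, against 41.8, 91.1 and 51.4 CPM in the GRwt libraries. Goblet cell markers summed to 37506, 17444 and 5089 CPM in GRdim replicates 1, 2 and 3 and 22645, 31984 and 24279.5 CPM in GRwt replicates 1, 2 and 3, and absorptive colonocyte markers, 3 higher and 7 lower, to 1423, 1327 and 878 CPM in GRdim replicates 1, 2 and 3 and 1023, 2217 and 867 CPM in GRwt replicates 1, 2 and 3. Agr2, a goblet cell disulfide isomerase named after its values were seen, had all GRdim libraries below, as had 3.57% of all genes tested. It had 972, 1022 and 342 CPM in the GRdim libraries, against 1467, 1421 and 1149 CPM in the GRwt libraries. GRdim replicate 3 had the highest squamous and smooth muscle sums and the lowest goblet sum. It was the highest library for 7 of the 28 cholesterol genes, Mvk, Mvd, Srebf1, Scap, Npc1, Npc2 and Abcg1, and the lowest for 0. It was the highest library for 17.9% and the lowest for 18.7% of the tested genes averaging at least 5 CPM. No gene of these lists passed the threshold, and their part in the cholesterol values was not tested.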

How the data were processed

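The authors made the deposited table of raw read counts per gene from 6 libraries of colonic tumor RNA. Per the labels' protocols, RNA was extracted with the RNeasy kit, messenger RNA was taken up with the Dynabeads kit and the strand-marking Illumina Stranded mRNA Prep kit followed. Per the submitters' processing notes, bcl2fastq 2.20.0.422, Trim Galore, STAR 2.7.8a, featureCounts of Subread 1.5.0, DESeq2 1.40.2 and the build GRCm39 were used. The strand setting of the counting and the annotation release are not given in the sources used here, so reads of genes that overlap on opposite strands may not be parted. Fdft1 overlaps Ctsb, Cyp51 overlaps Akap9, Srebf1 overlaps Rai1 and Npc1 overlaps Rmc1 in this way, and Tm7sf2 overlaps Vps51 on the same strand.

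Each column carries a library name that the labels give to 1 sample. In R 4.3.3, edgeR 4.0.16 fitted a robust quasi-likelihood model by genotype after its default expression filter and TMM scaling, with Benjamini-Hochberg adjustment over all 18756 genes kept, at a threshold of 0.05. CPM are counts scaled by the TMM-adjusted library total. Standard errors are the fold change over the square root of F, and 95% intervals use the moderated degrees of freedom. F rests on variances that edgeR moderates over all genes, so a standard error is not the spread of a gene's own libraries alone. The members and lists were chosen with earlier results of these data known. Every member is named. Values in each library are given for members whose genotypes do not overlap, the 12 of smallest unadjusted p and the highest of each role per kilobase, and for Idi1, Sqle, Lss, Hsd17b7, Insig1 and Stard4, chosen after their values were seen. From the further sterol and fatty acid lists, genes whose genotypes do not overlap and up to 4 of smallest p a list are named, and up to 3 markers of highest mean from some marker lists. Acly, Fasn, Scd2, Acss2, Adrb3, Krt4, Krt6a, Krt13, Krt14, Krt15, Dsg3 and Agr2 were added after their values were seen. Alternatives were DESeq2 1.42.0, limma-voom (limma 3.58.1) with sample weights, relative log expression factors, no filter, the T in library names as a covariate or as a reason to leave libraries out, the replicate number as a block, GRdim replicates 1 and 3 summed, and each library left out. The procedure was tested on simulated counts.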

Additional observations from a re-analysis of the deposited data

How the results depend on the processing

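No cholesterol gene passed the threshold under any of the 14 alternatives. In the whole table DESeq2 called 33 genes and the other 13 alternatives 0, with 245 to 1165 genes at an unadjusted p under 0.05 over all settings. The number of the 28 genes with a fold change below 0 ran from 13 to 22, and the median fold change from -0.13 to 0.018. Fold changes of 16 genes differed in sign from the reported one in 51 instances, and all of these and the values they replaced were smaller than their standard errors. With DESeq2 it was -0.012 for Pmvk. With limma-voom it was 0.069 for Idi1, -0.044 for Srebf2 and -0.024 for Scap. With relative log expression factors it was -0.010 for Pmvk. Without the filter on low counts it was -0.014 for Pmvk. With the T as a covariate it was -0.0033 for Pmvk and 0.0034 for Idi1. With the replicate block it was -6.2e-05 for Pmvk and 0.023 for Idi1. With GRdim replicates 1 and 3 summed it was -0.0053 for Hsd17b7 and -0.027 for Srebf2. Without both T libraries it was 0.094 for Idi1, 0.039 for Sqle, -0.030 for Scap and 0.052 for Abcg1. Leaving out each library gave -0.047 to 0.58 for Abca1, -0.16 to 0.13 for Abcg1, -0.45 to 0.24 for Hmgcs1, -0.10 to 0.37 for Hsd17b7, -0.33 to 0.35 for Idi1, -0.35 to 0.089 for Insig1, -0.35 to 0.22 for Lss, -0.21 to 0.026 for Mvd, -0.074 to 0.21 for Mvk, -0.087 to 0.22 for Npc2, -0.059 to 0.088 for Pmvk, -0.064 to 0.24 for Scap, -0.15 to 0.16 for Sqle, -0.044 to 0.34 for Srebf1, -0.089 to 0.14 for Srebf2 and -0.19 to 0.13 for Stard4. The cause of these changes was not tested. Replicate numbers did not pair the samples: deviations from the genotype means correlated at -0.55, 0.066 and -0.43 between same-numbered libraries 1, 2 and 3. The highest correlations across genotypes were 0.53 for GRdim replicate 1 with GRwt replicate 3, the T libraries, and 0.47 for GRdim replicate 3 with GRwt replicate 1. A gene's deviations within a genotype sum to 0, so these correlations depend on each other and are not separate evidence. The replicate block called 0 genes. With 3 libraries a genotype the median standard error of 0.21 limits what differences could be seen.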
